A study of Arabidopsis thaliana with 28 samples.

Results

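Plant endoglucanases of glycosyl hydrolase family 9 (GH9) were examined in wild-type Arabidopsis thaliana of the Columbia 0 ecotype grown on medium with or without sucrose. The genes were chosen by name: GH9B8, GH9B11, GH9B12 and GH9B16 were each required to have a probe annotated with exactly 1 gene. All 4 had 1 such probe, out of 692 probes with 1 gene and 3439 probes in all. A GH9 name is carried by 24 genes of the RefSeq table for Arabidopsis, so 4 probes cover a small part of the family. The locus tags are AT2G32990 for GH9B8, AT2G44560 for GH9B11, AT2G44570 for GH9B12 and AT4G38990 for GH9B16. GH9B11 and GH9B12 are next to each other in the annotation, GH9B11 has GH9B10 on its other side, and GH9B16 is followed by GH9B17.

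Total RNA came from plants on Murashige and Skoog (MS) medium, a mixture of mineral salts widely used to grow plants in vitro. Plants of 14 arrays had 2% sucrose in the medium, and plants of the other 14 arrays had no added sucrose. All plants were wild type, and the labels give neither an organ nor an age, nor do they say how many plants an array stands for. In RNA from such bulk samples, a lower signal from fewer cells of a type and one from less RNA per cell cannot be told apart.

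GH9 enzymes cut the beta-1,4-glucan chains of cellulose and related wall polysaccharides from within the chain. In plants they form 3 structural classes. Class A enzymes such as KORRIGAN are anchored in a membrane and take part in cellulose synthesis. Class B enzymes, to which all 4 genes here belong by name, are secreted to the wall without a carbohydrate-binding module, and class C enzymes carry such a module. Family members are known for roles in cell elongation, in wall loosening and in the separation of organs. Sucrose in the medium is both a carbon source and a signal for growth in Arabidopsis.

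Each array gave 1 intensity per probe on a linear scale that reached between 81.5 and 100 on the different arrays, and 11.9 to 17.5% of the probes of an array were listed at 0. Precision is limited by how many arrays there are. Within a group, arrays with consecutive numbers resembled each other and were averaged to 7 sets. Nothing in the labels ties arrays to separate cultures, and p-values therefore reflect the spread among sets, some of which may be technical. Among sucrose sets 2 to 7 the median intensity of a set was at most 0.213, and among no-sucrose sets 3 to 7 it was at least 0.344. They were 0.339 in sucrose set 1, and 0.182 and 0.213 in no-sucrose sets 1 and 2, so these 3 sets were near the other label in overall signal. The same 3 sets were known from earlier results of these data to stand apart in expression, and results are given with and without them.

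In the main comparison GH9B12 was 2.29-fold higher on sucrose and GH9B8 was 1.77-fold lower, while GH9B16 and GH9B11 did not pass the test. Of the 4 genes, 1 was called higher and 1 lower at an adjusted p of 0.05 in limma, a linear model fitted over all probes. Over all 3439 probes 30.0% were called, 17.6% higher and 12.4% lower, so 2 calls among 4 genes are described here gene by gene and not as a property of the family. The same share was 27.0% for the unscaled values, 43.9% after median centring, 49.7% with 28 separate arrays and 48.2% without the 3 sets that stood apart, and calls of the 4 genes under those settings stand against these shares. The median log2 fold change of the 4 genes was -0.37, against 0.00 over all probes after normalization.

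GH9B12 had the highest relative signal of the 4 probes on sucrose. Its deposited intensity on the 14 sucrose arrays ran from 0.167 to 0.589 with a median of 0.457, and on the 14 no-sucrose arrays from 0.172 to 0.339 with a median of 0.277. No array was at or below the signal floor of 0.0483, set at the 5th percentile of the positive intensities. By set, the mean deposited intensity on sucrose was 0.187 in set 1, 0.469 in set 2, 0.515 in set 3, 0.573 in set 4, 0.377 in set 5, 0.266 in set 6 and 0.548 in set 7. Sucrose sets 2 to 5 and 7 were above every no-sucrose set, while sucrose set 1 lay near the bottom of the range and set 6 lay within it. Without sucrose the set means were 0.292, 0.258, 0.297, 0.275, 0.176, 0.219 and 0.334 in sets 1 to 7. The lowest of these was in set 5 and the highest in set 7, and the 2 arrays of a set differed for this gene by a median of 0.14 on the log2 scale.

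After quantile normalization GH9B12 had a mean log2 signal of -1.10 ± 0.89 on sucrose and of -2.30 ± 0.56 in its absence (SD, n = 7 sets each). The log2 fold change was 1.20 ± 0.39 (SE), with a 95% interval from 0.36 to 2.04 and a limma adjusted p of 0.0352. In 6 of the 7 sucrose sets the signal was above the no-sucrose mean, and all 7 no-sucrose sets were below the sucrose mean. The groups overlapped nonetheless. Sucrose set 1 was at -2.89, and sucrose set 6, at -1.51, was also below no-sucrose set 1, at -1.39. Without the 3 sets that stood apart GH9B12 was 3.45-fold higher on a log2 fold change of 1.79 ± 0.23 (SE), with a limma adjusted p of 0.000132, and sucrose and no-sucrose sets did not overlap. With all other sets kept, the call was lost when any 1 of 10 sets was left out (limma adjusted p from 0.0561 to 0.0708) and held without sucrose set 1 or 6 or no-sucrose set 1 or 2. With the deposited values left unscaled between arrays the gene was 1.51-fold higher and was not called (limma adjusted p = 0.0920).

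GH9B8 had the lowest signal rank of the 4 genes in both groups and was near the signal floor on much of the data. Its deposited intensity ran from 0 to 0.139 on the sucrose arrays, with a median of 0.0348, and from 0 to 0.930 on the no-sucrose arrays, with a median of 0.143. It was at or below the floor on 8 of the 14 sucrose arrays and on 3 of the 14 no-sucrose arrays, and listed at 0 on 4 and 3 of them. The no-sucrose arrays at 0 were arrays 1, 2 and 5. Array 6, the partner of array 5 in no-sucrose set 3, gave the highest value of the gene, 0.930, so the arrays of this set differed by 4.27 on the log2 scale. Elsewhere without sucrose, set means of the deposited intensity lay between 0.0982 in set 2 and 0.232 in set 7, apart from 0 in set 1. On sucrose they lay between 0 and 0.106, and the highest was in set 1.

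GH9B8 had a mean log2 signal of -4.11 ± 0.28 on sucrose and of -3.29 ± 0.57 in its absence (SD, n = 7 sets each). Its log2 fold change was -0.82 ± 0.24 (SE), with a 95% interval from -1.33 to -0.31 and a limma adjusted p of 0.0220. All 7 sucrose sets were below the no-sucrose mean and 6 of the 7 no-sucrose sets were above the sucrose mean. The groups overlapped because no-sucrose set 1 was at the floor. Since many values lie at the floor, the fold depends on where it is put: the gene was 1.42-fold lower when 0.1 was added to every value instead (limma adjusted p = 0.0833), and 2.59-fold lower with the floor at the 1st percentile (limma adjusted p = 0.148). The call also ended when the 28 arrays were fitted with the set as a random block (limma adjusted p = 0.249). Without the 3 sets that stood apart it was 2.11-fold lower (limma adjusted p = 0.000678), with sets of the groups that did not overlap. Single arrays still overlapped then, since no-sucrose array 5, in set 3, was listed at 0.

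GH9B16 showed the widest spread between sets, and the sets of both groups fell into high and low values. Its deposited intensity ran from 0 to 0.451 on the sucrose arrays, with a median of 0.0574, and from 0 to 0.738 on the no-sucrose arrays, with a median of 0.444. It was at or below the floor on 7 sucrose arrays and 3 no-sucrose arrays. By set, the mean deposited intensity without sucrose was 0.0173 in set 1 and 0.0609 in set 2, then 0.683, 0.469, 0.496, 0.439 and 0.439 in sets 3 to 7. On sucrose it was 0.434 in set 1, then 0.133, 0.0578, 0.0387, 0.119, 0.0116 and 0 in sets 2 to 7. The 3 sets that stood apart each had a level near that of the other label, so sucrose set 1 was about as bright as no-sucrose sets 4 to 7, and no-sucrose sets 1 and 2 were as dim as most sucrose sets. The cause was not tested.

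With all sets GH9B16 did not pass. Its mean log2 signal was -3.42 ± 0.98 on sucrose and -2.28 ± 1.25 in its absence (SD, n = 7 sets each), and the log2 fold change was -1.14 ± 0.58 (SE), with a 95% interval from -2.41 to 0.13 and a limma adjusted p of 0.158. In 6 of the 7 sucrose sets it was below the no-sucrose mean. It passed with the 28 arrays as separate samples (limma adjusted p = 0.0342), which counts the like arrays of a set as independent. With the set as a random block it did not pass (limma adjusted p = 0.157). It also passed without no-sucrose set 1 alone, where the log2 fold change was -1.49 (limma adjusted p = 0.0439). That set is among the 3 that stood apart, so leaving it out favours a difference by construction. Without the 3 sets that stood apart it was 4.46-fold lower on sucrose (log2 -2.16 ± 0.28, SE, limma adjusted p = 0.000167), the widest difference of the 4 genes under that setting. Since sucrose sets 6 and 7 were at the floor, this fold depends on it. Over all sets the log2 fold change was -1.63 with the floor at the 1st percentile and -0.79 when 0.1 was added to every value instead.

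GH9B11 was measured above the floor on all 28 arrays and was not called under any setting tried. Its deposited intensity ran from 0.134 to 0.361 on the sucrose arrays, with a median of 0.215, and from 0.0876 to 0.578 on the no-sucrose arrays, with a median of 0.420. By set, the mean deposited intensity without sucrose was 0.0902 and 0.168 in sets 1 and 2 and between 0.384 and 0.534 in sets 3 to 7. On sucrose it was 0.333 and 0.308 in sets 1 and 2 and between 0.170 and 0.242 in sets 3 to 7. No-sucrose sets 3 to 7 were thus above all sucrose sets before normalization, and no-sucrose sets 1 and 2 were below all of them.

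The normalized log2 signal of GH9B11 was -1.85 ± 0.36 on sucrose and -1.93 ± 0.49 in its absence (SD, n = 7 sets each). The log2 fold change was 0.08 ± 0.23 (SE), with a 95% interval from -0.41 to 0.57 and a limma adjusted p of 0.856. The sign depended on the scaling: the log2 fold change was -0.52 ± 0.39 (SE) for unscaled values, with a limma adjusted p of 0.337, and 0.10 ± 0.25 (SE) after median centring of the arrays, with a limma adjusted p of 0.755. The log2 fold change of GH9B12 was positive, and those of GH9B8 and GH9B16 were negative, under all 3 of these scalings. Over all probes the median log2 fold change was -0.31 for unscaled values and 0.31 after median centring.

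**Figure D1:**
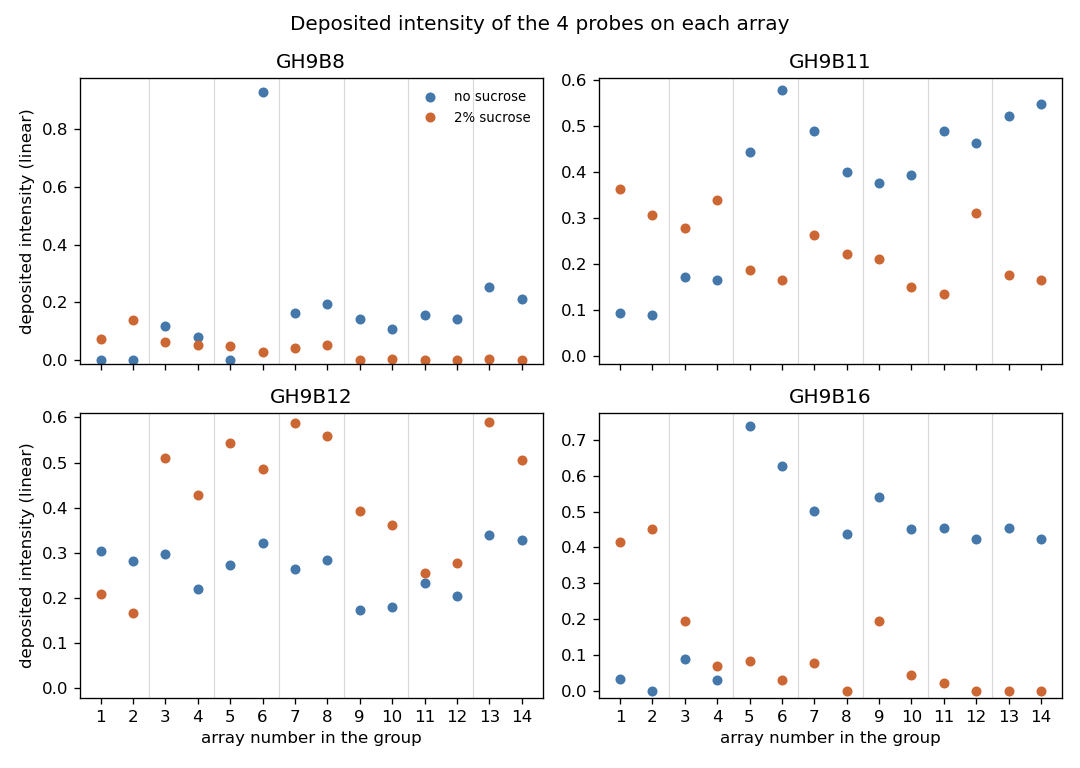
Deposited intensity (linear scale) of the 4 probes on each of the 14 no-sucrose and 14 sucrose arrays, by array number in the group; grey lines separate the sets of 2 arrays. GH9B12 is above its no-sucrose values on most sucrose arrays, and GH9B16 and GH9B8 are near 0 on many sucrose arrays. No-sucrose arrays 1 to 4 and sucrose arrays 1 and 2 go the other way for GH9B16 and GH9B11. For GH9B11 sucrose arrays 3 and 4 are also brighter than most sucrose arrays. GH9B12 is low on sucrose arrays 1 and 2, and GH9B8 is at 0 on no-sucrose arrays 1 and 2.

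**Figure D2:**
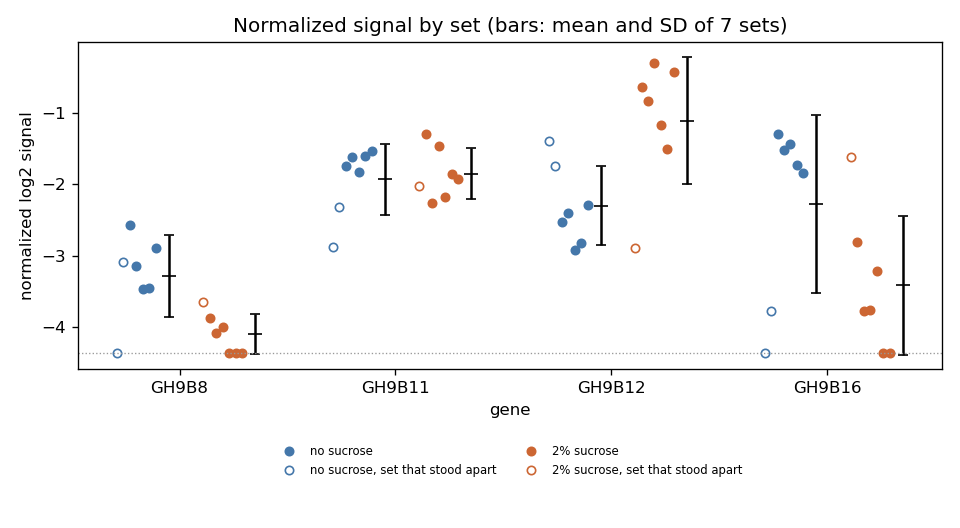
Normalized log2 signal of the 4 genes in the 7 sets of each group, with the mean and SD of the 7 sets beside them; open circles are sucrose set 1 and no-sucrose sets 1 and 2, and the dotted line is the lowest value, that of sets at the floor. Without the open circles the groups separate for GH9B8, GH9B12 and GH9B16, and not for GH9B11.

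Over all 7 sets per group, none of the 4 genes had groups that did not overlap, and 1.95% of all probes did. Without the 3 sets that stood apart, GH9B8, GH9B12 and GH9B16 had groups that did not overlap, as did 33.7% of all probes. Since those 3 sets were picked by their position in these very data, their removal favours separation and small p-values by construction.

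Signals of different probes depend on the probe as well as on the transcript, so the genes are placed by the rank of their signal among all probes of an array and not by abundance. On sucrose the median percentile over the 14 arrays was 75.9 for GH9B12, 51.3 for GH9B11, 20.4 for GH9B16 and 18.1 for GH9B8. GH9B12 ran from 28.4 to 84.6 and GH9B11 from 40.2 to 70.3, so these neighbours in the order overlapped. The ranges of GH9B16, from 7.39 to 60.3, and GH9B8, from 7.24 to 24.6, overlapped as well, while no array on sucrose put GH9B8 as high as the lowest percentile of GH9B11 or GH9B12. Without sucrose the order was different, with medians of 56.3 for GH9B16, 54.7 for GH9B11, 40.1 for GH9B12 and 24.7 for GH9B8. There the ranges of all 4 genes overlapped, that of GH9B16 running from 8.68 to 69.9 and that of GH9B8 from 6.51 to 76.8. Ranks taken only over the probes with 1 gene gave these same orders.

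Whether the 4 genes differed from one another in their sucrose response was tested on the difference of their log2 signals within each set, for all 6 pairs, with an exact two-sided permutation test of the sets and Benjamini-Hochberg adjustment over the 6 pairs. GH9B8 responded differently from GH9B12, by -2.02 ± 0.54 in log2 fold change (SE; 95% permutation interval -3.05 to -0.84, exact p = 0.00524, adjusted p = 0.0157). It also differed from GH9B11, by -0.90 ± 0.21 (SE; interval -1.37 to -0.43, exact p = 0.00291, adjusted p = 0.0157). The size of both differences depends on the floor, since GH9B8 was at or below it on 8 of the 14 sucrose arrays. With 0.1 added to every value instead they were -1.41 from GH9B12 and -0.56 from GH9B11 (exact permutation test, adjusted p = 0.0332 for both). The floor at the 1st percentile and the set as a random block were not run for pairs. For GH9B8 and GH9B16, with log2 fold changes of -0.82 and -1.14, of which the second did not pass, the difference was 0.32 ± 0.47 (SE) and had an interval from -0.73 to 1.35 (exact p = 0.516), so a difference of up to 1.35 on the log2 scale lies within the error.

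The other 3 pairs missed the adjusted threshold. The neighbouring genes GH9B11 and GH9B12 differed by -1.12 ± 0.49 (SE; interval -2.16 to 0.02, exact p = 0.0536, adjusted p = 0.0643). GH9B12 and GH9B16 differed by 2.33 ± 0.93 (SE; interval 0.09 to 4.29, exact p = 0.0408, adjusted p = 0.0612), and GH9B11 and GH9B16 by 1.22 ± 0.50 (SE; interval 0.10 to 2.27, exact p = 0.0326, adjusted p = 0.0612). All 3 passed without sucrose set 1, without no-sucrose set 1, or without no-sucrose set 2, with adjusted p between 0.0117 and 0.0490 in exact permutation tests. None of the 3 passed when any other of the 14 sets was left out (exact permutation test, adjusted p up to 0.119). All 3 passed when 0.1 was added to every value instead of using a floor (exact permutation test, adjusted p = 0.0448). With unscaled values all 3 missed the threshold (exact permutation test, adjusted p from 0.0542 to 0.0748). Without the 3 sets that stood apart the response of GH9B12 differed from that of GH9B11 by 1.95 and from that of GH9B16 by 3.95 on the log2 scale (exact permutation test, adjusted p = 0.00649 for both). Those 3 sets, which are the same sets as above, were picked by their position in these very data. Leaving out any of them favours a difference by construction, so these passes are no separate support for one.

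**Figure D3:**
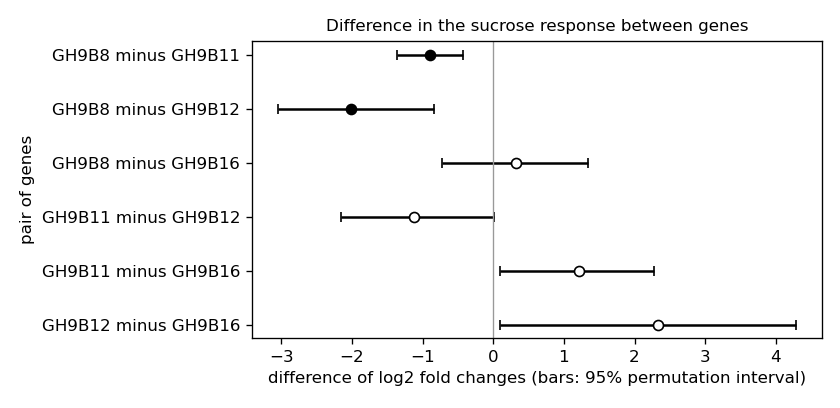
Difference of the log2 fold changes (sucrose over no sucrose) for the 6 pairs of genes, with the 95% permutation interval as bars; filled points have an adjusted p under 0.05. The 2 filled pairs are GH9B8 with GH9B11 and GH9B8 with GH9B12, and the interval of GH9B8 with GH9B16 crosses 0 widely.

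The ratio of GH9B12 to GH9B11 on the same array is free of any linear scaling of that array, although its size includes the brightness of both probes. The ratio had a median of 2.07 on the sucrose arrays and 0.608 on the no-sucrose arrays. On sucrose it ran from 0.547 to 3.37, with its lowest values, 0.575 and 0.547, on both arrays of set 1. Without sucrose it ran from 0.442 to 3.28, with 3.28 and 3.21 on the arrays of set 1 and 1.75 and 1.32 on those of set 2. The remaining 10 no-sucrose arrays lay between 0.442 and 0.714, below all 12 arrays of sucrose sets 2 to 7, which ran from 0.892 upward. This split sets aside the 3 sets that stood apart, which favours separation by construction. Without them 33.7% of all probes had groups whose sets did not overlap. Over all arrays the ratios of the groups overlapped.

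**Figure D4:**
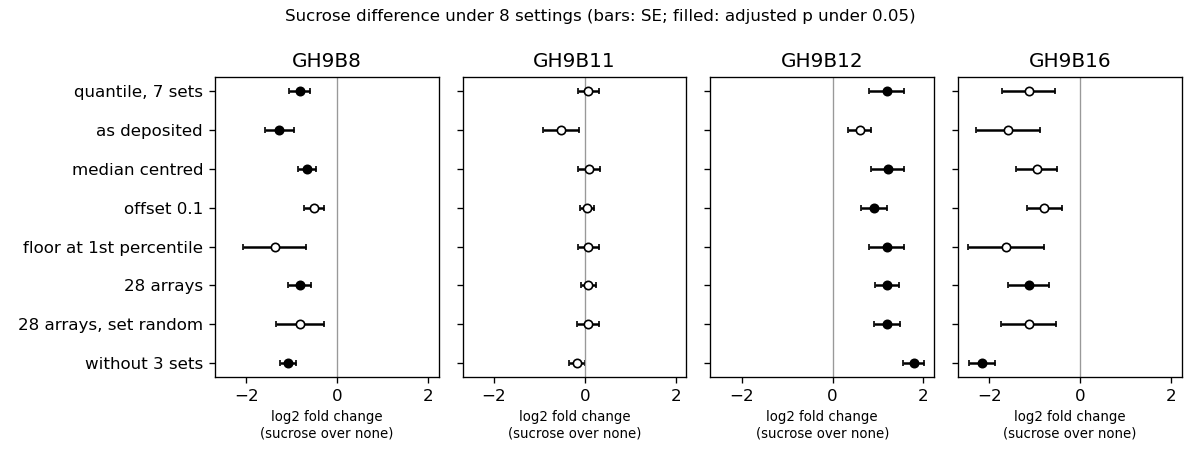
Log2 fold change of each gene on sucrose under 8 settings of scaling, floor, unit of replication and sets kept, with the SE as bars; filled points have a limma adjusted p under 0.05. GH9B8 and GH9B16 are below 0 and GH9B12 above 0 in all 8, while GH9B11 changes sign, and leaving out the 3 sets moves GH9B16 from -1.14 to -2.16.

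A further 6 probes are annotated with 2 to 4 genes each, all with GH9 names, and none of them is assigned to a gene here. Of these 6, 1 was called lower on sucrose (limma adjusted p = 0.0353) at a log2 difference of -0.83 ± 0.27 (SE), and 0 were called higher, against 12.4% lower and 17.6% higher over all probes. The called probe is annotated with GH9B14 and GH9B15. Another probe of the same genes had -1.02 ± 0.40 (SE; limma adjusted p = 0.0670) and was not called. It was at or below the floor on all 14 sucrose arrays and on 6 no-sucrose arrays. The median log2 fold change of the 6 was -0.37. The probe whose 4 genes include GH9B11 and GH9B12 differed by 0.76 ± 0.33 on the log2 scale (SE; limma adjusted p = 0.0958). The probe whose 3 genes include GH9B16 had 0.55 ± 0.62 (SE; limma adjusted p = 0.525). It thus did not share the negative sign of the probe of GH9B16 alone, which had -1.14 ± 0.58 (SE; limma adjusted p = 0.158). For unscaled values the 4-gene and 3-gene probes gave log2 fold changes of 0.03 and -0.11, so the sign of the latter depended on the scaling. Probe sequences were not used here, and how far transcripts of close relatives bind to the 4 probes was not tested.

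Other cell wall genes were looked for by symbol and synonym among the probes with 1 gene, with a list that covered cellulose and callose synthases, expansins, xyloglucan, pectin and arabinogalactan genes and other wall hydrolases. Only 1 gene was found, CSLA01, a cellulose synthase-like gene of the family that makes mannan backbones. It was 1.77-fold higher on sucrose, or 0.83 ± 0.22 on the log2 scale (SE; limma adjusted p = 0.0159). Its median deposited intensities were 0.102 with sucrose and 0.0994 without, and with the values as deposited it was 1.09-fold higher and not called (limma adjusted p = 0.724).

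The genes whose signals followed each endoglucanase most closely were taken over all 14 sets, among the other 581 probes with 1 gene that were above the floor on at least 14 of the 28 arrays. These Pearson correlations describe the sets, hold both the group difference and the 3 sets that stood apart, and are given without a test. For GH9B8 and GH9B16 they also hold sets that lay at the floor. Genes picked in this way tend to share the direction of the gene they follow, so their calls are no separate result. Over all probes 17.6% were called higher and 12.4% lower. GH9B12 was closest to AT3G61870 (r = 0.958), AT1G72020 (r = 0.952) and IQD22 (r = 0.951), which encodes a protein with the calmodulin-binding IQ domain. All 3 were higher on sucrose, with log2 fold changes of 1.19, 1.17 and 0.97 and limma adjusted p of 0.0214, 0.0307 and 0.0367. GH9B16 was closest to AT2G24810 (r = 0.959), AT4G31210 (r = 0.939) and AT3G04650 (r = 0.936). Of these, AT4G31210 was called lower on sucrose (limma adjusted p = 0.0405), at a log2 fold change of -1.62. GH9B8 was closest to AT1G73090 (r = 0.901), AT3G60590 (r = 0.896) and AT1G07040 (r = 0.860), and all 3 were called lower on sucrose at log2 fold changes of -0.83, -0.93 and -1.19. For GH9B11 the correlations were weaker, at 0.819 with AT2G21960, 0.699 with DRT101 and 0.667 with AT1G50020, and none of these 3 genes was called.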

How the data were processed

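The deposited table holds a linear intensity for each probe on each array. How the authors scanned, background-corrected or normalized it is not stated in any label, and the background level is unknown. Gene names follow the platform annotation, with symbols brought up to date from RefSeq (TAIR10.1); of 3439 probes, 692 had 1 gene, 870 several and 1877 none listed. Intensities were raised to a floor of 0.0483, log2 transformed and quantile normalized. Arrays with consecutive numbers were averaged, which left 7 sets per group; this unit was taken from earlier results of these data and not from the labels. Groups were compared with limma 3.58.1 in R 4.3.3 (lmFit and eBayes, two-sided), with Benjamini-Hochberg adjustment over all probes. Pairs of genes were compared with exact permutation tests (scipy 1.17.1). The limma fit was tried on simulated data with independent normal noise in each set. That simulation had no floor and no sets that stood apart, so it does not cover those features of the data. The genes and lists were chosen with earlier results of these data known. Named were all 4 genes, the cell wall genes found, and for each gene the 3 probes with the highest correlation. The alternatives changed the scaling, floor, filter, replicate unit, block, variance model and sets kept.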

Additional observations from a re-analysis of the deposited data

How the results depend on the processing

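GH9B12 kept its direction under all alternatives and lost its call with unscaled values (log2 0.60; adjusted p = 0.0920 in limma) and with the replicate block (log2 1.20, limma adjusted p = 0.104). Leaving out 1 set at a time gave it 1.06 to 1.49 and 4 calls of 14, without sucrose set 1 or 6 or no-sucrose set 1 or 2, with limma adjusted p from 0.00134 to 0.0708. GH9B8 kept its direction and lost its call with the set as a random block (-0.82, limma adjusted p = 0.249), an offset of 0.1 (-0.51), the floor at the 1st percentile (-1.37) and the replicate block (-0.82, limma adjusted p = 0.0789); leave-one-out values ran from -1.0 to -0.70 and all 14 were called. It did not pass the filter on the dimmest 25% of probes. GH9B16 gained a call with 28 separate arrays (-1.14), without the 3 sets that stood apart (-2.16) and without no-sucrose set 1. It was not called with the set as a random block (limma adjusted p = 0.157), and ran from -1.49 to -0.97 with 1 set left out. GH9B11 changed sign with the values as deposited (-0.52), without the 3 sets (-0.16), without no-sucrose set 1 (-0.081) and without sucrose set 2 (-0.016), in a leave-one-out range of -0.081 to 0.14, and was not called in any. The cause of these changes was not tested.

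Probes called over the whole table numbered 1033, and 1710 with 28 separate arrays, 1657 without the 3 sets, 416 with the replicate block and 764 to 1431 with 1 set left out. Same-numbered sets of the groups did not deviate together in all pairs (correlations of deviations from -0.52 to 0.13), so the numbers were not taken to pair the samples. Exact permutation tests of the 14 sets for each gene alone gave p of 0.00816 for GH9B8, 0.751 for GH9B11, 0.0169 for GH9B12 and 0.0845 for GH9B16, unadjusted.

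Pair differences were run with unscaled values, with an offset of 0.1, without the 3 sets and with 1 set left out. The floor at the 1st percentile and the set as a random block, which ended the call of GH9B8, were not run for pairs. The differences of GH9B8 from GH9B11 (-1.0 to -0.80 with 1 set left out) and GH9B12 (-2.39 to -1.86) passed under the alternatives run. They were -0.56 and -1.41 with an offset of 0.1 and -0.91 and -2.86 without the 3 sets. GH9B11 minus GH9B12 passed with an offset of 0.1 (-0.86) and without the 3 sets (-1.95), and ran from -1.43 to -0.98 with 1 set left out. GH9B11 minus GH9B16 passed likewise (0.85 and 2.00; 1.06 to 1.54), as did GH9B12 minus GH9B16 (1.70 and 3.95; 2.06 to 2.93). With unscaled values these 3 pairs did not pass (exact permutation test, adjusted p from 0.0542 to 0.0748). GH9B8 minus GH9B16 passed without the 3 sets (1.08), and ran from 0.14 to 0.60 with 1 set left out.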
